A study of Mus musculus with 4 samples.

Results

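NF-kappaB is a family of transcription factors made of paired subunits, and the I-kappaB proteins bind those pairs and restrain or redirect them. The genes described here were chosen by family membership, as the 5 subunit genes (Rela, Rel, Relb, Nfkb1 and Nfkb2), the 3 classical inhibitor genes (Nfkbia, Nfkbib and Nfkbie) and the 2 nuclear I-kappaB genes Bcl3 and Nfkbiz, 10 in all. Of these, 9 were matched to 18 probe sets (sets of array oligonucleotides read as 1 signal), among 18193 genes with a probe set of their own, and Nfkb1 was not analysed here. The family was picked with the genotype differences of these same arrays known, so the values of its members in knockout and wild-type cells are given as a description, with no test.

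Total RNA of MEFs (mouse embryonic fibroblasts, immortalised) was hybridised to 4 Affymetrix arrays. All cells were homozygous for a loxP-flanked, conditional PA1 allele. The PA1 -/- cells (knockout, 2 arrays) had received a retrovirus with Cre recombinase, which cuts out DNA between loxP sites, and the PA1 +/+ cells (wild type, 2 arrays) had received the empty retroviral vector. Both kinds of cell carry the loxP allele, both were grown in DMEM with 10% FBS and both were selected with puromycin, and no cytokine or other stimulus is named. Cre was present in the knockout cells alone, so its presence and the loss of PA1 cannot be told apart. PA1 was read as Pagr1a, whose product is a partner of the histone methyltransferases KMT2C and KMT2D. The arrays of each genotype are numbered 1 and 2. Nothing in the labels ties these numbers to separate cultures, and a p-value here covers the spread between arrays only, which may be technical.

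In resting cells most RELA-containing pairs are held in the cytoplasm by I-kappaB-alpha, the product of Nfkbia. Stimuli such as TNF or interleukin-1 activate the IKK kinase, which marks I-kappaB-alpha for destruction, and the freed pairs enter the nucleus and switch on Nfkbia itself, Nfkb2, Relb and many cytokine and chemokine genes. A slower route through the kinase NIK trims the p100 product of Nfkb2 to p52, which pairs with RELB. BCL3 and the Nfkbiz product I-kappaB-zeta differ from the classical inhibitors in that they sit in the nucleus on p50 or p52 and can activate as well as repress genes.

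The genotype labels held up in the targeted gene: the brightest Pagr1a probe set read 108 and 113 in knockout cells and 1340.3 and 1389 in wild-type cells. Median signals over 45037 probe sets were between 63.2 and 66.4 on the 4 arrays. Precision is limited by how few arrays there were. The arrays stood apart by replicate number more than by genotype. Log2 signals correlated across 22519 tested probe sets at 0.971 and 0.977 between the knockout and wild-type arrays of 1 number, against 0.920 between the knockout arrays and 0.918 between the wild-type arrays. Genotype differences were therefore also taken within each number. Of 10 fibroblast markers, 9 passed the filter on dim probe sets. Summed signals over all 10 were 79325 and 89085 in knockout cells and 88950.0 and 109344 in wild-type cells. These sums are mostly vimentin, fibronectin, collagens and S100a4, and the growth factor receptor genes of the list, which add little to them, were lower in knockout cells without overlap. Pdgfra read 134 and 210.3 in knockout cells and 1515 and 357 in wild-type cells, and Pdgfrb 1571 and 2807 in knockout cells and 3694 and 3482 in wild-type cells. The log2 differences were -2.07 (SE 0.732) and -0.77 (SE 0.324). Of 9 leukocyte and macrophage markers, 4 (Ptprc, Lyz2, Itgam and Tyrobp) were below a signal of 62.8 on every array. Sums over the 9 were 958 and 1001 in knockout cells against 899 and 1797 in wild-type cells. Of the 3 that passed the filter, Cd14 read 418 and 539 in knockout cells and 425 and 1416 in wild-type cells. It thus made up most of the sum on wild-type array 2. Csf1r was higher in knockout cells without overlap, at 175 and 147 against 94.9 and 91.3 in wild-type cells. Cd68 was lower in knockout cells at both numbers, with overlap. Sums over 5 endothelial markers were 138 and 153 in knockout cells and 134 and 134 in wild-type cells, and over 6 epithelial markers 493 and 349 in knockout cells and 706 and 307 in wild-type cells. Krt18 read 266 and 27.6 in knockout cells and 298 and 11.4 in wild-type cells. Cdh1 read 24.5 and 1.46 in knockout cells and 160 and 3.37 in wild-type cells. The other epithelial markers were not lower at number 2 in both genotypes. The part of these markers and of other cell types in the differences below was not tested.

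Bcl3 was the 1 member at least 2-fold lower in knockout cells at both replicate numbers, and the other members differed less or went opposite ways at the 2 numbers. Nfkbiz was lower at both numbers by less than 2-fold in its brightest probe set, and Rela was higher at both. In all, 3 of 9 members (Bcl3, Nfkbiz and Rel) were lower at both numbers, against 29.3% of all genes, and 1 of 9 was higher at both, against 33.9%. For Nfkb2, Relb, Nfkbia, Nfkbib and Nfkbie the brightest probe set was higher in knockout cells at number 1 and lower at number 2. These were 5 of 9 members, where 20.8% of all genes had that order, and 0 of 9 had the opposite order, where 16.1% of all genes did. The genotype difference was lower at number 2 than at number 1 in 9 of 9 members, as it was in 55.7% of all 10714 genes tested. The members share the same 4 arrays, so they are not replicates of that pattern, and with 1 array of each genotype within a number the change of the difference could not be tested.

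**Figure D1:**
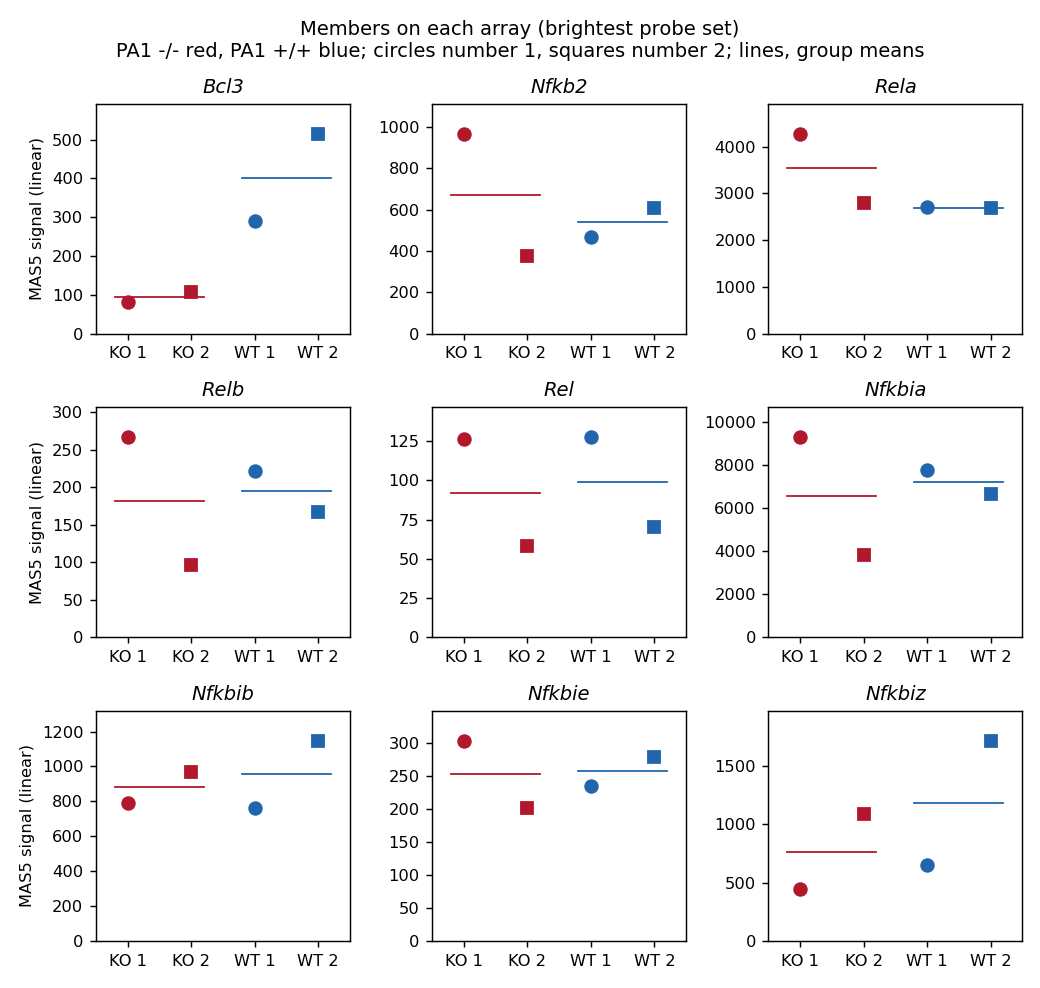
Signal of the brightest probe set of each member on the 4 arrays (vertical axes, linear MAS5 signal starting at 0), with PA1 -/- arrays in red on the left, PA1 +/+ arrays in blue on the right, circles for number 1, squares for number 2 and lines at group means. Bcl3 reads 82.5 and 106 in knockout cells against 289 and 515 in wild-type cells, while Nfkb2, Relb, Nfkbia and Nfkbie have their highest value on knockout array 1 and their lowest on knockout array 2.

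Bcl3 encodes an I-kappaB protein first known from a chromosome break in lymphocytic leukaemia, which binds p50 and p52 pairs on DNA. Its probe set read 82.5 and 106 in knockout cells and 289 and 515 in wild-type cells, or 94.4 ± 16.8 and 402 ± 159.9 (mean ± SD, n = 2 each). The knockout arrays were both low and the groups did not overlap. On the log2(signal + 9.96) scale used throughout, which understates the change of dim genes, the difference was -1.93 with a standard error of 0.404, or 3.82-fold lower in knockout cells. It was 3.23-fold lower at number 1 and 4.52-fold lower at number 2. Of all genes tested, 0.831% were at least 2-fold lower at both numbers and 0.187% at least 2-fold higher at both. Among the members these were 1 of 9 (Bcl3) and 0 of 9, in the contrast that helped to choose them. In RNA from a bulk culture, fewer cells that express a gene and less RNA per cell cannot be told apart.

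The tested neighbours of Bcl3 on chromosome 7 differed less than Bcl3 did. Of the 5 protein-coding genes on either side of it in RefSeq, 5 of the 10 were tested, with log2 differences between -0.44 and 0.32 and none below -0.82 within a number. Relb, on the same chromosome with 10 protein-coding genes between it and Bcl3, differed by -0.24.

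Nfkbiz encodes I-kappaB-zeta, which is itself induced by interleukin-1 and Toll-like receptor signals and is needed for a secondary set of inflammatory genes. Its brightest probe set read 448 and 1086 in knockout cells and 655 and 1718 in wild-type cells. The arrays numbered 1 were low and those numbered 2 high in both genotypes, so the groups overlapped. Within a number, knockout cells were 1.45-fold lower at number 1 and 1.58-fold lower at number 2. The log2 difference over both numbers was -0.60 with a standard error of 0.635. This error exceeds the difference, but it includes the spread between the numbers, since genotype was the only term of the fit. A second probe set read 286 and 983 in knockout cells against 454 and 1676 in wild-type cells, and the dimmest 135 and 270.2 in knockout cells against 168 and 570.3 in wild-type cells. All 3 probe sets were thus lower in knockout cells at both numbers, by between -0.29 and -1.05 on the log2 scale. Between the numbers Nfkbiz differed more than between the genotypes: the arrays numbered 2 were between 1.93 and 3.63 times those numbered 1, over 3 probe sets and both genotypes.

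Nfkbia encodes I-kappaB-alpha, the inhibitor that NF-kappaB induces against itself, and was measured by 5 probe sets. The brightest read 9288 and 3811 in knockout cells and 7749.9 and 6672 in wild-type cells. Knockout array 1 was the highest and knockout array 2 the lowest of the 4, with the wild-type arrays between them. The other bright probe sets had the same order of knockout values around wild type: the second read 3762 and 1093 in knockout cells against 2382 and 1767 in wild-type cells. Across the 5 probe sets, the knockout was higher at number 1 in 5 (log2 differences from 0.11 to 0.66) and lower at number 2 in 5 (from -0.81 to -0.26). Averaged over both numbers these nearly cancelled, with a log2 difference of -0.27 (SE 0.452) for the brightest and -0.02 (SE 0.616) for the second.

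Nfkbib and Nfkbie encode the inhibitors I-kappaB-beta, which is resynthesised more slowly, and I-kappaB-epsilon. Nfkbib read 792 and 968 in knockout cells and 762 and 1147 in wild-type cells, with a log2 difference of -0.09 (SE 0.294). The groups overlapped, and number 2 was the higher one in both genotypes. Its second probe set, at 33.5 and 43.9 in knockout cells against 34.1 and 41.6 in wild-type cells, was too dim to be tested and was the 1 of 18 probe sets left out by the filter. Nfkbie read 303 and 202 in knockout cells and 235 and 278 in wild-type cells. As for Nfkbia, knockout array 1 was highest and knockout array 2 lowest. The second Nfkbie probe set had that order too, at 176 and 112 in knockout cells against 144 and 125 in wild-type cells. The log2 difference of Nfkbie over both numbers was -0.05 (SE 0.334), and 0.01 after median scaling of the arrays.

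**Figure D2:**
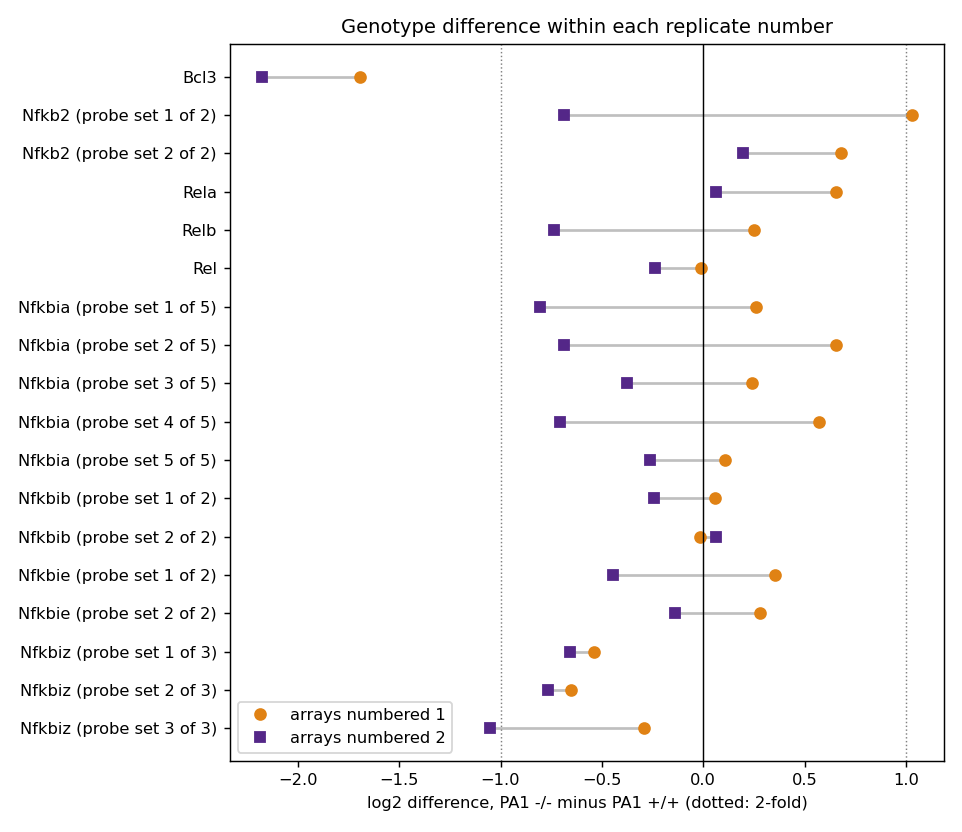
Log2 difference between knockout and wild type (horizontal axis, log2(signal + 9.96)) within the arrays numbered 1 (circles) and within those numbered 2 (squares) for each of the 18 probe sets of the members, with dotted lines at 2-fold. Bcl3 lies at -1.69 and -2.18, all 3 Nfkbiz probe sets lie below 0 at both numbers, and all 5 Nfkbia probe sets lie above 0 at number 1 and below 0 at number 2.

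Among the subunits, Rela encodes p65, the partner that carries the activating domain in the classical p50 and p65 pair. It read 4277 and 2800.1 in knockout cells and 2711 and 2678 in wild-type cells. Both knockout arrays were above both wild-type arrays, but knockout array 2 only barely, and the SD between the knockout arrays was 1044. The log2 difference was 0.36 (SE 0.266), at 0.66 for number 1 and 0.06 for number 2. Among all genes tested, 15.0% were higher without overlap and 11.3% lower without overlap, 26.3% in all. Of the 9 members, 1 was of each kind (Rela and Bcl3), and this contrast helped to choose them.

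Rel encodes c-REL, best known in lymphocytes. It read 126 and 57.9 in knockout cells and 127 and 70.1 in wild-type cells, a log2 difference of -0.12 (SE 0.538). The genotypes were close at each number, and the arrays numbered 2 were low in both genotypes. The value of 57.9 lies below 62.8, the signal at the filter boundary.

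Relb and Nfkb2 encode the pair of the slower route, RELB and p100/p52. Relb read 267 and 96.4 in knockout cells and 222 and 167 in wild-type cells, or 1.19-fold higher in knockout cells at number 1 and 1.66-fold lower at number 2. Nfkb2 read 968 and 375 in knockout cells and 469 and 611 in wild-type cells, or 2.04-fold higher at number 1 and 1.61-fold lower at number 2. Both had knockout array 1 highest and knockout array 2 lowest. Their log2 differences over both numbers, -0.24 (SE 0.548) for Relb and 0.17 (SE 0.501) for Nfkb2, were smaller than their standard errors. A second Nfkb2 probe set read 357 and 200.3 in knockout cells and 219 and 173 in wild-type cells, so the 2 probe sets had opposite signs at number 2 (-0.69 and 0.20).

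The 2 knockout arrays also differed from each other in these genes. Knockout array 2 was at least 2-fold below knockout array 1 for 4 of 9 members (Nfkb2, Relb, Rel and Nfkbia), against 6.97% of all genes tested. It was at least 2-fold above it for 1 (Nfkbiz), against 5.93% of all genes. Between the wild-type arrays, 0 of 9 members were at least 2-fold lower on array 2, against 6.43% of all genes, and 1 (Nfkbiz) was at least 2-fold higher, against 6.14%. The median log2 difference of array 2 from array 1 was -0.61 over the members in knockout cells and 0.24 in wild-type cells, where all genes tested had -0.03 and 0.02. Each of these compares 1 array with 1 array, and the labels do not say what the numbers stand for. For 7 of 9 members the difference between numbers exceeded that between genotypes, as it did for 67.5% of all genes; the 2 others were Bcl3 and Rela.

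**Figure D3:**
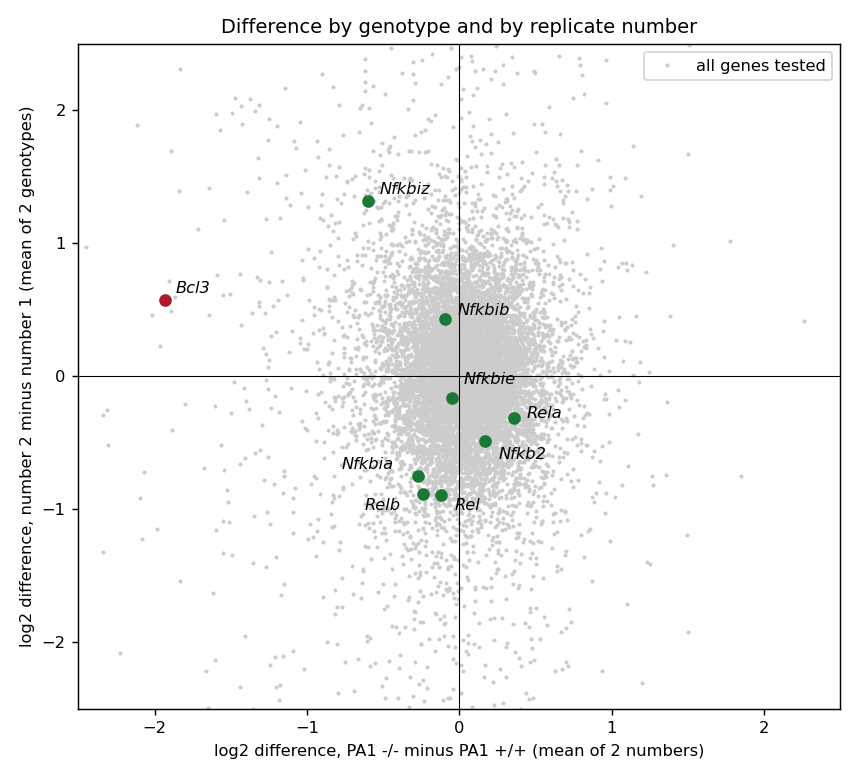
Each gene tested is placed by its log2 difference between knockout and wild type (horizontal axis, mean of both numbers) and between number 2 and number 1 (vertical axis, mean of both genotypes), with all genes in grey, Bcl3 in red and the other members in green; 226 genes lie beyond the axes. Bcl3 stands far to the left at -1.93, Nfkbiz lies high, and Rel, Relb and Nfkbia lie low with small genotype differences.

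3 promoters are shown to set a member lower at both numbers (Bcl3) beside a pair that went opposite ways (Nfkbia and Nfkb2). They are RefSeq windows on GRCm38.p6 of 250 bases before to 50 bases after a gene's start, printed 5′ to 3′ on the gene's strand: Bcl3 at chr7:19822706-19823005 (minus strand), Nfkbia at chr12:55492598-55492897 (minus strand) and the first of the Nfkb2 starts at chr19:46304487-46304786 (plus strand). Capitals mark matches to the 10-base kappaB consensus on either strand, where overlapping matches run together.
Bcl3: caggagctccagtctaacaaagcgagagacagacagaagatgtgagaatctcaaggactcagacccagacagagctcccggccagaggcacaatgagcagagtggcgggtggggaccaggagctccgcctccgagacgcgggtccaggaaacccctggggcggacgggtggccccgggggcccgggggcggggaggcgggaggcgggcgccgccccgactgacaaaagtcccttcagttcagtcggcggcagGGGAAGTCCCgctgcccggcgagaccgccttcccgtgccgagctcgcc
Nfkbia: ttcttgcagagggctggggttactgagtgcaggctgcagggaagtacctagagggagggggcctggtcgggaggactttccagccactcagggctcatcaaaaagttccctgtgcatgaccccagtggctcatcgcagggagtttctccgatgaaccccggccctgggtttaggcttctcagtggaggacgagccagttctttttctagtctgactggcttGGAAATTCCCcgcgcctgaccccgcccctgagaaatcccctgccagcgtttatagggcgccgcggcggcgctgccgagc
Nfkb2: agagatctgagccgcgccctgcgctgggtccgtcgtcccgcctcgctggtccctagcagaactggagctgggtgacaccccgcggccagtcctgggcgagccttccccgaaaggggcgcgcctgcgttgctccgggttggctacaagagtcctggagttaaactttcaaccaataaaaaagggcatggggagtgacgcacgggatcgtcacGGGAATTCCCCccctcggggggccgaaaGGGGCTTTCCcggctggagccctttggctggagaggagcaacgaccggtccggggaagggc

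Of the members, 7 had such a window in the RefSeq table and 5 of these (Bcl3, Rel, Nfkbia, Nfkbie and Nfkb2) held a match, while the windows of Nfkbib and Rela held none. Nfkb2 had more than 1 window, and counted by window a match stood in 7 of 9 windows of the members. The share was 8.46% of all 32851 windows in the table. The later Nfkb2 windows overlap and hold a match in common, so the count by window includes that match more than once. Bcl3 had 1 match, which began 2 bases after the first transcribed base, and Nfkbia had 1. Genes with a match were lower at both numbers (Bcl3, Rel) as well as higher at number 1 and lower at number 2 (Nfkbia, Nfkbie and Nfkb2 in their brightest probe sets). A match is a run of letters and does not show binding.

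The wider pathway was read from 135 genes in 6 lists (a few genes stand in 2 lists), of which 96 were tested. With genotype as the only term, limma called 0 of the 96 at an adjusted p threshold of 0.05, where it called 0.0% of all probe sets (0 of 22519). Of the 96, 1 had an unadjusted p under 0.05, against 2.16% of genes overall. The targeted gene Pagr1a was itself not called in this fit (log2 difference -3.51, SE 0.244). An absence of calls therefore does not show an absence of change. With the replicate number as a block, limma called 3 of the 96 and 447 of 22519 probe sets, as described in the last section. The medians of the lists of receptors, of adaptors and kinases, of feedback inhibitors and of coregulators were 0.10, 0.05, 0.03 and 0.03, beside a median of 0.02 over all genes and -0.12 over the 9 members.

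Target genes of NF-kappaB had the lowest median of the lists with over 1 tested gene. Of 45 targets, 27 were tested, 20 of them below 0 and 7 above, with a median of -0.31 (-0.12 at number 1 and -0.29 at number 2). Over all 10714 genes tested, 5004 were below 0 and 5710 above. The median was -0.02 without wild-type array 1, -0.09 without knockout array 2, and -0.18 both with a pseudocount of 64.9 and in the upper 30% of probe sets. It was -0.42 without knockout array 1 and -0.29 without wild-type array 2. A pseudocount of 1 gave -0.32, and quantile normalization and median scaling each gave -0.26. Leaving out 1 array also mixes the numbers into the genotypes. At both numbers 11 targets were lower, or 40.7% where 29.3% of all genes were, and 6 were higher, where 33.9% of all genes were. Without overlap between groups, 3 of the 27 were lower and 2 higher, against 11.3% and 15.0% of all genes. Ccl7, a chemokine gene that attracts monocytes, read 91.9 and 31.6 in knockout cells and 187 and 172 in wild-type cells. Both knockout arrays were low, with a log2 difference of -1.54 (SE 0.540). With genotype as the only term, limma gave an unadjusted p of 0.0312 and an adjusted p of 0.9998 over all probe sets. With the replicate number as a block, limma gave an adjusted p of 0.0272, but the labels do not say what a number stands for. Irf1, an interferon-response transcription factor gene, read 697 and 588 in knockout cells and 975 and 863 in wild-type cells (log2 difference -0.51). Csf1, the macrophage growth factor gene, went the other way at 5403 and 4688 in knockout cells against 2277 and 4252 in wild-type cells (0.69), with the wild-type array numbered 1 apart from the other 3.

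Of 18 coregulators, 15 were tested, 3 lower and 3 higher without overlap (11.3% and 15.0% of all genes). Pir, which encodes pirin, a nuclear iron-binding protein known to bind BCL3, read 325 and 169.7 in knockout cells and 609 and 366 in wild-type cells. The knockout arrays were low, by -0.88 at number 1 and -1.06 at number 2 on the log2 scale. Crebbp, which encodes the acetyltransferase CBP, read 2290.2 and 2302 in knockout cells and 1796 and 1613 in wild-type cells (0.43), but 2 other tested probe sets of it gave 0.13 and 0.08 with overlap. Carm1, a methyltransferase gene, read 3438 and 2279 in knockout cells and 2115 and 2164 in wild-type cells (0.39), so that knockout array 1 was apart from the other 3.

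Of 19 receptor genes, 10 were tested, 1 lower and 3 higher without overlap, where all genes had 11.3% and 15.0%. Tnfrsf11a, the gene of RANK, read 34.9 and 70.7 in knockout cells and 80.1 and 159 in wild-type cells (log2 difference -1.04, near the filter boundary), and its dimmer probe set overlapped between the groups. Il1r1, the interleukin-1 receptor gene, read 177 and 129 in knockout cells and 102 and 63.6 in wild-type cells (0.83). Tlr4, the endotoxin receptor gene, read 117 and 125 in knockout cells and 87.8 and 88.6 in wild-type cells (0.41). These 3 genes are dim, and none passed limma over all probe sets.

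Of 37 adaptors and kinases, 30 were tested, 3 lower and 4 higher without overlap. These 7 of 30 compare with 26.3% of all genes. The differences of the 30 ran from -0.47 to 0.72. Map3k14, which encodes NIK, the kinase of the slower route, read 223 and 189 in knockout cells and 251 and 329 in wild-type cells. The log2 difference was -0.47, and a second probe set gave -0.72 without overlap. Ikbkb, which encodes the kinase subunit IKK-beta, read 1472 and 1518 in knockout cells and 937 and 1327 in wild-type cells (0.42), and a second tested probe set gave 0.64 with overlap. Irak1, a kinase gene of interleukin-1 signalling, read 1337 and 1885 in knockout cells and 1204 and 1244 in wild-type cells (0.37). Its other tested probe sets gave 0.16 and 0.46 with overlap and 0.53 without overlap.

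Of 17 feedback inhibitors, 15 were tested, 0 lower and 2 higher without overlap, against 11.3% and 15.0% of all genes. Rnf11 and Itch encode partners of the ubiquitin-editing enzyme A20. Rnf11 read 2254 and 2442 in knockout cells and 1929.8 and 1519 in wild-type cells (0.45), with 2 other tested probe sets also above 0. Itch read 635 and 864 in knockout cells and 602 and 550.1 in wild-type cells (0.36), but other tested probe sets of it gave -0.29 and 0.04. Of 2 other I-kappaB-like genes, Nfkbil1 read 695 and 632 in knockout cells and 605 and 534 in wild-type cells (0.22). Nfkbid, which encodes the nuclear I-kappaB-NS, was too dim to be tested, at 66.8 and 63.0 in knockout cells and 77.8 and 39.0 in wild-type cells.

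**Figure D4:**
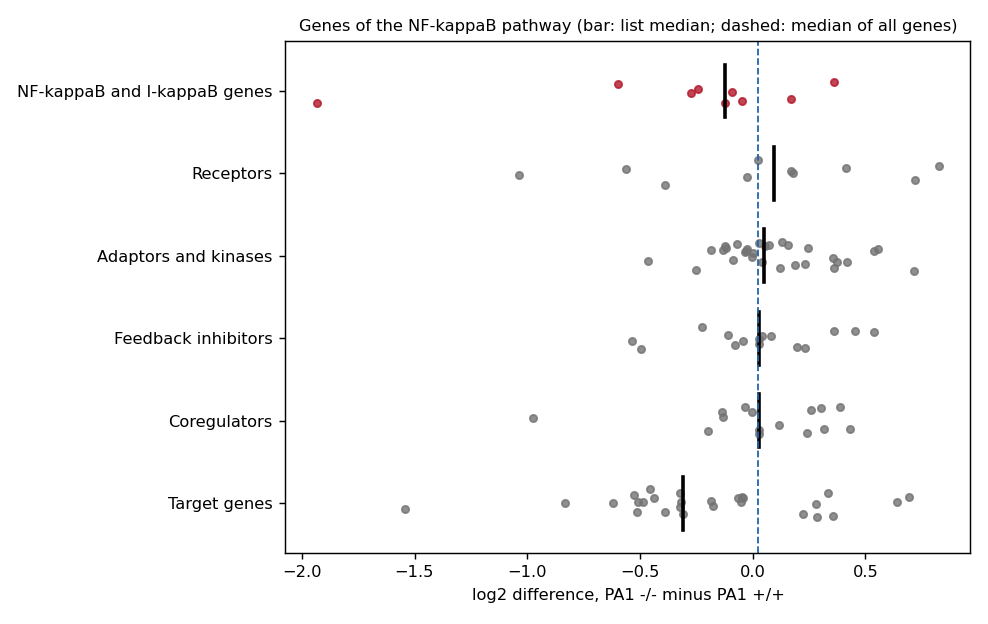
Log2 difference between knockout and wild type (horizontal axis) for each tested gene of the members (red) and of 5 pathway lists (grey), with a black bar at each median and a dashed line at the median of all genes, 0.02. The target list has its median at -0.31, the other 4 lists lie between 0.03 and 0.10, and Bcl3 is the member farthest to the left.

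The genes whose values over the 4 arrays were most like those of Bcl3 were taken as those with the smallest root mean square difference from it, after each gene's log2 values were centred on their own mean. They were Ntrk3, the neurotrophin-3 receptor gene (0.134), Kif22, a kinesin gene (0.220), Calml4 (0.248), Adamtsl3 (0.302) and Tgfbi, a matrix protein gene (0.318). Ntrk3 read 82.8 and 82.0 in knockout cells and 261 and 505 in wild-type cells. Its other probe sets were too dim to be tested and went both ways, with log2 differences from -1.31 to 0.53. Tgfbi read 643 and 728 in knockout cells and 1235 and 2385 in wild-type cells, and its 4 tested probe sets were all lower at both numbers. The likeness of Kif22 held for its brightest probe set alone, since 2 others differed by -0.03 and -0.13. Among the members, the closest to Bcl3 was Nfkbiz with 0.771, in place 422 of all genes tested, and the farthest was Rela with 1.23, in place 8947.

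**Figure D5:**
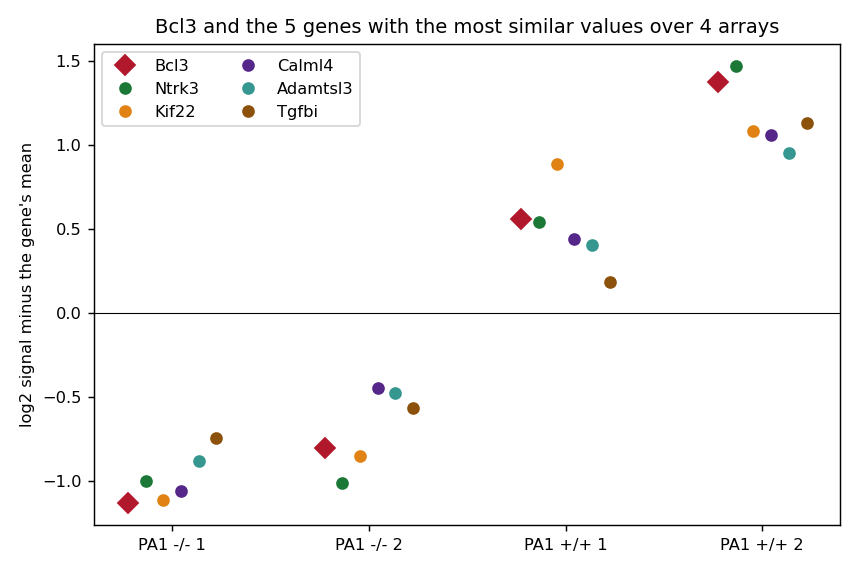
Log2 signal minus the gene's own mean (vertical axis) on the 2 PA1 -/- and 2 PA1 +/+ arrays for Bcl3 (red diamonds) and the 5 genes with the smallest root mean square difference from it (circles). All 6 lie below 0 on both knockout arrays and above 0 on both wild-type arrays, as the choice of genes fixes.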

How the data were processed

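The authors deposited linear intensity values, 1 per probe set and array; the submitters' processing notes name MAS5 and the sources used here give no version or settings. The mean of each array without the lowest and highest 2% was 500.0, so differences are relative to each array's average. After 64 controls were left out, 45037 probe sets stayed, and symbols came from the platform annotation, only where it gave 1. Signals were analysed as log2(signal + 9.96), with the 20th percentile as pseudocount. The upper 50% of probe sets by mean were tested (22519, boundary near a signal of 62.8), and a gene was read through its brightest, which gave 10714 genes. The genotypes were tested across all probe sets in R 4.3.3 by limma 3.58.1 with genotype as the only term. The test was 2-sided (lmFit and trended eBayes, Benjamini-Hochberg over all tested probe sets, threshold 0.05). The code was checked on simulated data. The simulated arrays held no effect of replicate number, so that check does not tell how many changes the fit misses in these arrays. Standard errors are limma's from the fit by genotype alone and include the spread between replicate numbers.

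The members and lists were chosen with earlier results of these data known. Named beside the members were Pagr1a, up to 3 tested genes per list with the largest difference, the same sign at both numbers and no overlap, and the 5 genes most like Bcl3. Alternatives were quantile normalization, median scaling, pseudocounts of 1 and 64.9, no filter, a filter keeping 30%, other variance models, averaging a gene's probe sets, dropping each array in turn, and a block for the replicate number. Bcl3's neighbours, the promoter search and the comparison of numbers were added after values were seen. Python 3.11.15 with matplotlib 3.10.9 made the figures.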

Additional observations from a re-analysis of the deposited data

How the results depend on the processing

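The count of probe sets called, 0 at a limma adjusted p threshold of 0.05 (440 at an unadjusted p under 0.05), and that of pathway genes called, 0 (1 at an unadjusted p under 0.05), were both 0 under every alternative tried other than the replicate block, and from 0 to 0 when 1 array was left out. With the replicate number as a block (replicate block), limma called 447 of 22519 probe sets, 329 lower in knockout cells and 118 higher. In that fit limma called 3 of 96 pathway genes, Ccl7, Pir and Ccnd1, all lower in knockout cells (adjusted p = 0.0272, 0.0312 and 0.0390). The labels do not say that a number marks a shared culture; deviations from the group means correlated at 0.805 between arrays of the same number, and with 2 pairs this is a hint from the data only. The count of members at least 2-fold lower at both numbers was 1 under each normalization, pseudocount and probe set rule, and 0 in the upper 30% of probe sets, where Bcl3 was not among those tested. It has no value when 1 array is left out, since a number then holds 1 genotype. Bcl3 differed by -1.51 with a pseudocount of 64.9 and by between -2.34 and -1.53 when 1 array was left out. Leaving out 1 array also mixes the numbers into the genotypes: Nfkbiz then ran from -1.29 to 0.09, Relb from -0.93 to 0.45, Nfkbia from -0.91 to 0.37, Nfkb2 from -0.50 to 0.84, Rel from -0.63 to 0.38, Nfkbib from -0.39 to 0.20, Nfkbie from -0.33 to 0.23 and Rela from 0.06 to 0.66.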
